A study of Mus musculus with 8 samples.

Results

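The genes described here encode the vacuolar proton pump (V-ATPase), the carbonic anhydrases, the bicarbonate, anion and proton carriers of the Slc4, Slc26 and Slc9 families, the ammonia channels Rhbg and Rhcg, and the transcription factor Foxi1. They were chosen by symbol in the platform's probe annotation and not by any measured value. The choice gave 56 probes for 51 genes, of 16361 probes in the value table and 15078 features tested, and all 56 probes had values on all 8 arrays. The cells were mpkCCDc14, a mouse line of the kidney cortical collecting duct, grown on collagen-coated filters and kept in steroid-free serum. One set received 1 µM aldosterone, the adrenal mineralocorticoid, for 1 h or 6 h, and the other its ethanol vehicle for the same time. Each of 4 arrays per time compared treated cells, labelled with Cy5, with vehicle cells, labelled with Cy3. Replicate numbers only name the arrays of a time (all but 2 of them were given in the order of deposit), and the same number at 1 h and 6 h links nothing. A log2 ratio above 0 means more signal with aldosterone.

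In the collecting duct, acid is secreted mainly by intercalated cells, and sodium is taken up by the neighbouring principal cells. The V-ATPase couples ATP hydrolysis in its cytosolic V1 part to proton movement through its membrane V0 part. It works at the plasma membrane of intercalated cells and in the lysosomes and endosomes of nearly every cell. Carbonic anhydrases make protons and bicarbonate from water and carbon dioxide, and Slc4 and Slc26 proteins carry the bicarbonate across membranes. Aldosterone is known to increase acid secretion in this segment as well as sodium uptake. Whether the labelled cell type expresses these genes could not be checked, because ratios hold no level and the signal over background of each spot is unknown. Less RNA per cell and fewer cells of a type cannot be told apart in such ratios.

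The dyes were never exchanged, so at a single time an effect of the hormone and a preference of a probe for one dye cannot be told apart. Of 7 known aldosterone targets checked, 6 were called above vehicle at 6 h. Among them, the log2 ratio was 2.10 ± 0.11 for Fkbp5, 1.91 ± 0.35 for Sgk1 and 1.47 ± 0.11 for Scnn1a (mean of 4 arrays ± SE from limma). Every SE given here pools the gene's spread at both times and draws on that of all features. It is not the spread of the 4 arrays alone. The remaining target, Per1, did not pass at 6 h, at -0.08 ± 0.09. It was called below vehicle at 1 h, at -0.28 ± 0.09. At 1 h the arrays disagreed for some targets. Sgk1, a kinase that raises sodium channel activity, stood at 1.65 and 1.38 on replicates 1 and 2. On replicates 3 and 4 it stood at -0.64 and -0.16. Tsc22d3, a glucocorticoid-induced leucine zipper gene, did likewise, with 1.01, 0.88, -0.60 and -0.15. Usp2 gave 0.46, 0.92, -0.01 and 0.06, and Fkbp5 0.76, 0.69, 0.03 and 0.63. Atp1b1 and Scnn1a were above 0 on all 4 arrays, with 0.90, 0.73, 0.58 and 1.13, and 0.59, 0.43, 0.12 and 0.55. Replicate 4 at 1 h also had the widest spread of ratios over all probes, an SD of 0.589 against 0.31 on the narrowest array. A feature, meaning a gene or an unnamed probe, was called where its limma p was under 0.05 after Benjamini-Hochberg adjustment across the whole table. Since nothing in the labels states that each array had its own culture, the p-values reflect only how much these arrays varied, which may be technical.

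At 1 h the ratio passed above vehicle for 10 of the 51 genes and below it for 16, and 25 did not pass. The 26 called genes are 51% of the members, against 41.0% of all features. At 6 h 5 were above, 8 below and 38 did not pass, or 25.5% called against 17.8% of all features. The shares in each direction over all features were 20.0% above and 21.0% below at 1 h, and 7.13% above and 10.7% below at 6 h. Most of the ratios were small. A mean at least 0.5 from 0 was called for 7 members at 1 h, where 12.6% of all features reached that size, and for 4 at 6 h, where 5.8% did. The 12 genes called with one sign at both times were 5 above (Atp6v1b2, Atp6v1d, Atp6v1g1, Car2 and Slc4a4) and 7 below (Atp6v0a1, Car8, Foxi1, Slc26a3, Slc4a3, Slc4a10 and Slc9a9). Over all features 12.1% were called in that way, 5.16% above and 6.94% below.

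The promoters printed next are those of Rhcg, an ammonia channel gene that was below vehicle at 1 h, and Atp6v0d1, a V-ATPase gene that was above it. They show the letters before a gene of each direction. Each is the 250 bases that end where the gene's RefSeq span begins, build GRCm38.p6, read 5′ to 3′ on the gene's strand. Capitals mark AGAACA or its reverse complement TGTTCT, the half-site of the mineralocorticoid and glucocorticoid receptors, and CACGTG, the E-box core bound by TFEB and its relatives in lysosomal gene promoters. The windows lie at chr7:79617658-79617907 (minus strand) for Rhcg and chr8:105566065-105566314 (minus strand) for Atp6v0d1. Rhcg holds a half-site, and Atp6v0d1 neither motif.
Rhcg: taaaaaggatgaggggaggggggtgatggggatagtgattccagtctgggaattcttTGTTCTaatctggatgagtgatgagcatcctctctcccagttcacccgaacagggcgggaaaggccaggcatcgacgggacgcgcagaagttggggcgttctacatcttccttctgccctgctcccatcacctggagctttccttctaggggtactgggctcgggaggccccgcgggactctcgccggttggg
Atp6v0d1: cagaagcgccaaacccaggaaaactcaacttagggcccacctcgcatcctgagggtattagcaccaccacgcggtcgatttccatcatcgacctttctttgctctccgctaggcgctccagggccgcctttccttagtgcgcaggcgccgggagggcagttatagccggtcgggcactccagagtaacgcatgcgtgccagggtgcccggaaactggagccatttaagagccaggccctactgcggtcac

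Promoter windows were found for 39 of the 51 genes, 48 windows in all. Of these, 20 ended where the gene's span begins and 28 overlapped the span, so the counts that follow are not all of sequence outside the gene. CACGTG, which reads the same on both strands, lay in 4 of the 48, those of Atp6v0b, Atp6v1a, Car6 and Slc26a1, and in 6.02% of all 32851 windows. The half-site lay on either strand in 4 of the 48, those of Atp6v0b, Rhcg, Slc26a1 and Slc26a4, and in 16.1% of all windows. The full palindrome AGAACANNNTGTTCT, which contains 2 half-sites, lay in none of the 48 and in 3 of all 32851 windows. Of the 6 genes with either motif, Car6 and Rhcg were called, both below vehicle at 1 h. At that time 51% of the members and 41.0% of all features were called. A link between motif and call was not tested. A match describes these letters only.

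Among V-ATPase genes, several subunits made in most cells were above vehicle, while Atp6v0a1 was below. Of 17 subunits measured, 5 were above and 2 below at 1 h, and 3 were above and 1 below at 6 h. The share called was 41.2% at 1 h and 23.5% at 6 h, against 41.0% and 17.8% of all features. Their median log2 ratio was 0.13 at 1 h and 0.07 at 6 h, against a median over all features of 0.00 at both times. With 1 h fitted on replicates 1 and 2 only, the median was 0.08. The plot of V-ATPase subunits by array shows each value.

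**Figure D1:**
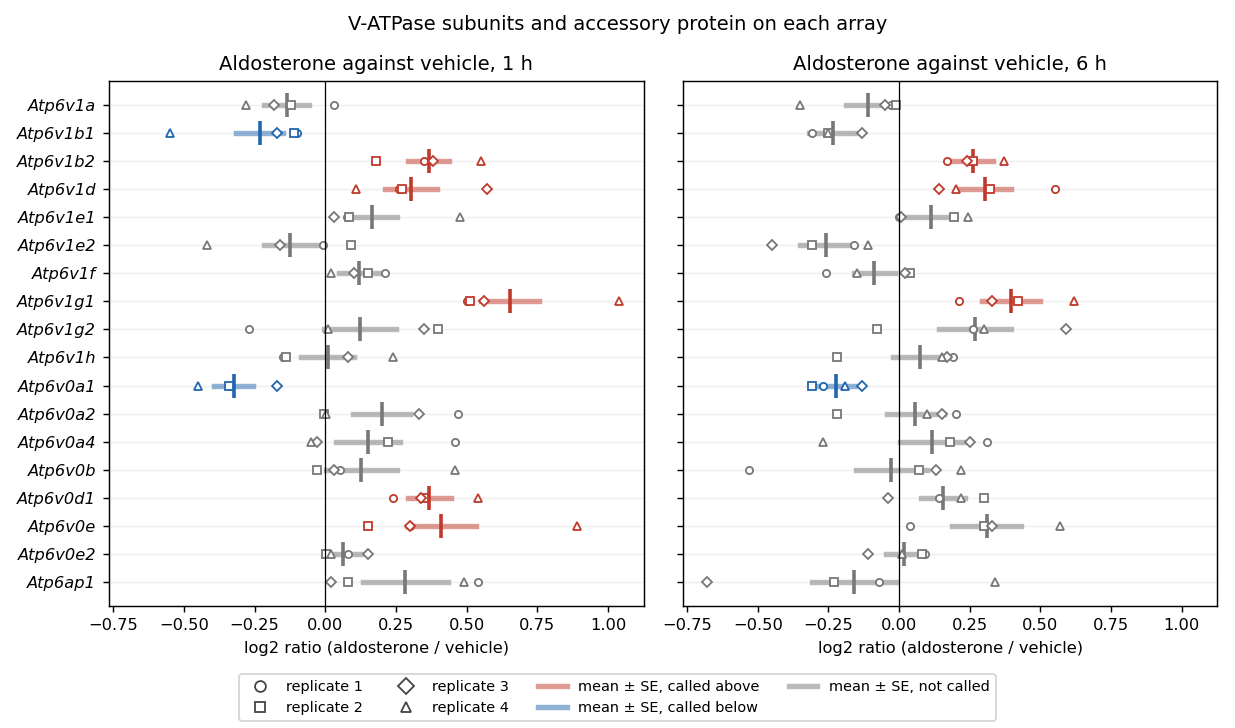
Log2 ratio of aldosterone to vehicle for 17 V-ATPase subunits and Atp6ap1 on each of 4 arrays at 1 h (left) and 6 h (right). Open symbols are arrays, ticks with bars are means ± SE from limma, and colours give the call at adjusted p under 0.05. Atp6v1g1 lies to the right of 0 on all 8 arrays (0.21 to 1.04) and Atp6v0a1 to the left (-0.45 to -0.13).

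In the V1 part, Atp6v1g1, a subunit of the outer stalk, gave 0.50, 0.51, 0.56 and 1.04 on replicates 1 to 4 at 1 h and 0.21, 0.42, 0.33 and 0.62 at 6 h. All 8 arrays were above 0. The mean was 0.65 ± 0.10 at 1 h (adjusted p = 0.00218) and 0.40 ± 0.10 at 6 h (adjusted p = 0.0288). Atp6v1b2, the widely expressed form of the nucleotide-binding B subunit, gave 0.35, 0.18, 0.38 and 0.55 at 1 h and 0.17, 0.26, 0.24 and 0.37 at 6 h. It too was above 0 on every array, with means of 0.37 ± 0.07 (adjusted p = 0.00504) and 0.26 ± 0.07 (adjusted p = 0.0373). Atp6v1d, a subunit of the central rotor, gave 0.26, 0.27, 0.57 and 0.11 at 1 h and 0.55, 0.32, 0.14 and 0.20 at 6 h. The 2 means were equal at 0.30 ± 0.09 (adjusted p = 0.0263 at 1 h and 0.0484 at 6 h), with the arrays of the times overlapping. Atp6v1b1, the B subunit of intercalated cells, passed narrowly below vehicle at 1 h, at -0.23 ± 0.08 (adjusted p = 0.0492). Its lowest array was replicate 4 at -0.55, and without that array the ratio was -0.13. The call ended whichever 1 h array was dropped (adjusted p between 0.0583 and 0.153). At 6 h it did not pass at -0.24 ± 0.08 (adjusted p = 0.079).

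The other V1 subunits did not pass at either time. Atp6v1a, the catalytic A subunit, was at -0.14 ± 0.08 and -0.11 ± 0.08, and Atp6v1h, which couples the V1 and V0 parts, at 0.01 ± 0.09 and 0.07 ± 0.09. Atp6v1f stood at 0.12 ± 0.07 and -0.09 ± 0.07. The tissue-restricted forms also did not pass: Atp6v1e2, a testis form, at -0.12 ± 0.09 and -0.26 ± 0.09, and Atp6v1g2, a brain form, at 0.12 ± 0.13 and 0.27 ± 0.13. Atp6v1e1, the widely expressed E subunit, was read by 2 probes. The mean of both was 0.17 ± 0.09 and 0.11 ± 0.09 and did not pass. Taken by itself, one probe was at 0.24 ± 0.06 at 1 h (adjusted p = 0.0128), and the other, at 0.09 ± 0.16, ranged from -0.21 to 0.75.

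In the V0 part, Atp6v0d1, which joins the rotor to the proton-carrying ring, gave 0.24, 0.35, 0.34 and 0.54 at 1 h, all above 0, for a mean of 0.37 ± 0.08 (adjusted p = 0.00588). At 6 h its arrays gave 0.14, 0.30, -0.04 and 0.22 and the mean of 0.16 ± 0.08 did not pass (adjusted p = 0.182). Atp6v0e, a small membrane subunit, gave 0.30, 0.15, 0.30 and 0.89 at 1 h and 0.04, 0.30, 0.33 and 0.57 at 6 h. It was above 0 on every array, with a mean of 0.41 ± 0.12 at 1 h (adjusted p = 0.0245). Replicate 4 was highest, and without it the mean was 0.25 and the call ended, as it did without replicate 3 (adjusted p up to 0.0837). At 6 h Atp6v0e did not pass at 0.31 ± 0.12 (adjusted p = 0.106). Atp6v0a1, a form of the large membrane subunit that lines the proton path, gave -0.34, -0.34, -0.17 and -0.45 at 1 h and -0.27, -0.31, -0.13 and -0.19 at 6 h. No array was above 0, and the means were -0.33 ± 0.07 (adjusted p = 0.00583) and -0.23 ± 0.07 (adjusted p = 0.0469).

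The remaining V0 subunits did not pass at either time. Atp6v0a4, the form of the large subunit in intercalated cells, was at 0.15 ± 0.11 and 0.12 ± 0.11, and Atp6v0a2, an endosome and Golgi form, at 0.20 ± 0.10 and 0.06 ± 0.10. Atp6v0b, of the proton-carrying ring, was at 0.13 ± 0.13 and -0.03 ± 0.13, and Atp6v0e2 at 0.06 ± 0.06 and 0.02 ± 0.06. Atp6ap1, an accessory protein of the pump, gave 0.28 ± 0.15 and -0.16 ± 0.15 and did not pass.

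The V-ATPase calls above vehicle were all in the 12 widely expressed forms, of which 5 were above and 1 below at 1 h and 3 above and 1 below at 6 h. Of 4 forms restricted to few tissues (Atp6v0a4, Atp6v1b1, Atp6v1e2 and Atp6v1g2), 0 were above at either time and 1 was below at 1 h. Atp6v0e2, which was not called at either time, was placed in neither group. At 1 h 50% of the widely expressed and 25% of the restricted forms were called, against 41.0% of all features. At 6 h these shares were 33.3% and 0%, against 17.8%. This grouping was drawn up with earlier results known, and the difference between the groups was not tested. The median of the widely expressed forms was 0.23, 0.12, 0.20 and 0.35 on the 1 h arrays and 0.09, 0.13, 0.14 and 0.21 on the 6 h arrays. A list of 61 cytosolic ribosomal protein genes, which are abundant in most cells, also held more calls above vehicle than below. In it 39 were above and 3 below at 1 h, and 8 above and 2 below at 6 h. The share called was 68.9% at 1 h and 16.4% at 6 h, against 41.0% and 17.8% of all features. The median of this list was 1.09 on replicate 4 at 1 h, against 0.33, 0.19 and 0.22 on replicates 1 to 3. The part of that array-wide pattern in the V-ATPase values was not tested. With 1 h fitted on replicates 1 and 2 only, Atp6v1g1 and Atp6v0a1 remained called among V-ATPase genes.

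**Figure D2:**
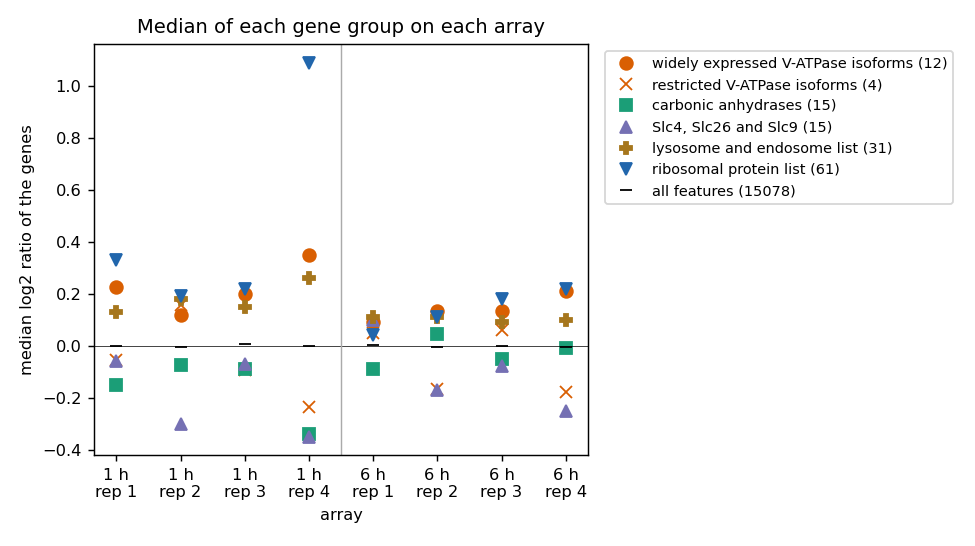
Median log2 ratio of each gene group on each of the 8 arrays, with the number of genes in brackets in the key. The ribosomal protein list reaches 1.09 on replicate 4 at 1 h. On that array the widely expressed V-ATPase forms are at their own highest, 0.35, and the carbonic anhydrases at their own lowest, -0.34. The Slc4, Slc26 and Slc9 group, which includes the adaptor gene Slc4a1ap, is at -0.35 there.

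Of 15 carbonic anhydrase genes, 3 were above vehicle (Car2, Car5b and Car11), 6 were below and 6 did not pass at 1 h, and 1 was above and 1 below at 6 h. The share called was 60% at 1 h and 13.3% at 6 h, against 41.0% and 17.8% of all features. Their median log2 ratio was -0.22 at 1 h and -0.01 at 6 h. Car2, the cytosolic enzyme abundant in the collecting duct, gave 0.45, 0.26, 0.20 and 0.04 at 1 h and 0.28, 0.39, 0.18 and 0.31 at 6 h. All 8 arrays were above 0, with means of 0.24 ± 0.08 (adjusted p = 0.0328) and 0.29 ± 0.08 (adjusted p = 0.0302). The 1 h call ended without replicate 1, 2 or 3 (adjusted p up to 0.138) and the 6 h call ended whichever array was dropped (adjusted p between 0.0592 and 0.11). The plot of carbonic anhydrases by array shows the members side by side.

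**Figure D3:**
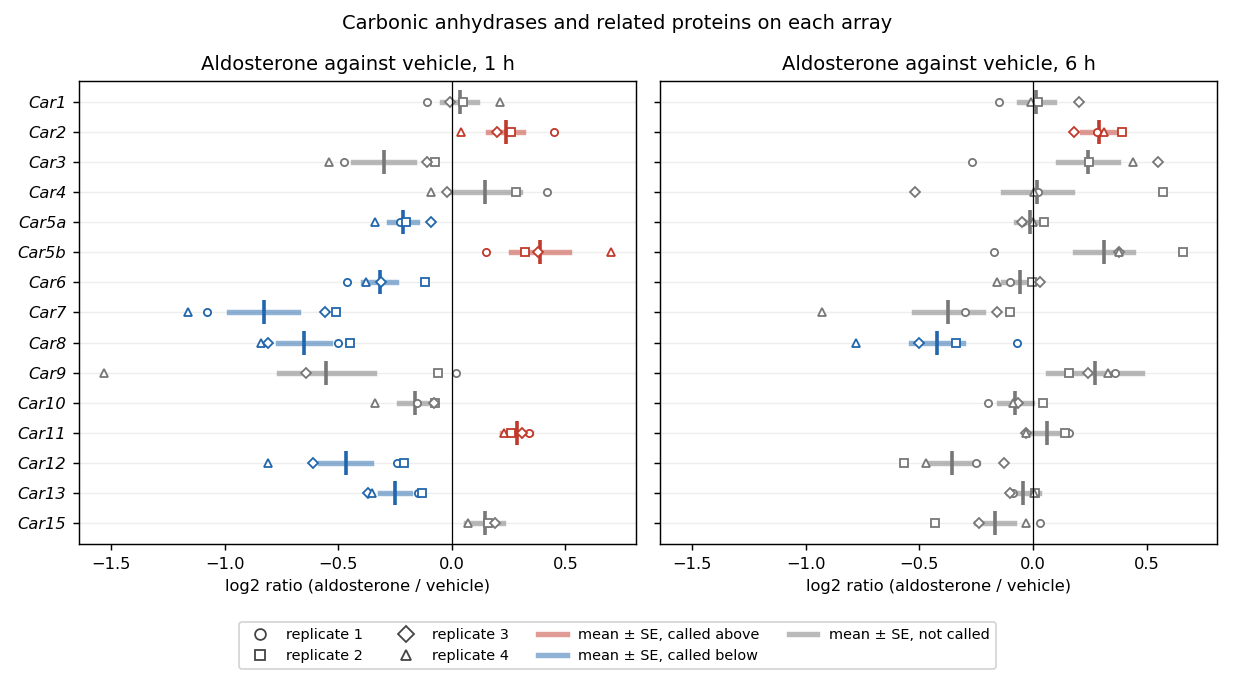
Log2 ratio of aldosterone to vehicle for 15 carbonic anhydrases and related proteins on each of 4 arrays at 1 h (left) and 6 h (right), with symbols, means ± SE and call colours at adjusted p under 0.05. Car7 and Car8 lie below 0 on all 8 arrays, Car2 above 0 on all 8, and Car9 runs from -1.53 to 0.02 at 1 h and from 0.16 to 0.36 at 6 h.

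Among the other cytosolic enzymes, Car7, known from brain and muscle, gave -1.08, -0.51, -0.56 and -1.16 at 1 h and -0.30, -0.10, -0.16 and -0.93 at 6 h. Every array was below 0. The mean was -0.83 ± 0.15 at 1 h (adjusted p = 0.00374) and did not pass at 6 h at -0.37 ± 0.15 (adjusted p = 0.116). Car13 gave -0.15, -0.13, -0.37 and -0.35 at 1 h, all below 0, for a mean of -0.25 ± 0.07 (adjusted p = 0.0169). Its 6 h arrays lay between -0.10 and 0.01, above every 1 h array, with a mean of -0.04 ± 0.07. Its 1 h call ended without replicate 3 (adjusted p = 0.0762). Car1, the red cell enzyme, did not pass, at 0.04 ± 0.08 and 0.02 ± 0.08.

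Car3, the muscle enzyme, was read by 2 probes that disagreed. One gave -0.55, -0.60, -0.62 and -0.89 at 1 h, a mean of -0.67 ± 0.09 that passed by itself (adjusted p = 0.00138), and -0.25 ± 0.09 at 6 h. The other gave -0.40, 0.45, 0.40 and -0.19 at 1 h and -0.25, 0.61, 1.18 and 1.38 at 6 h, with means of 0.07 ± 0.24 and 0.73 ± 0.24 that did not pass. The mean of both, -0.30 ± 0.13 and 0.24 ± 0.13, did not pass at either time.

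Of the membrane-bound and secreted enzymes, Car12, a surface enzyme of kidney epithelium, gave -0.24, -0.21, -0.61 and -0.81 at 1 h and -0.25, -0.57, -0.13 and -0.47 at 6 h. Each array was below 0, and the mean was -0.47 ± 0.11 at 1 h (adjusted p = 0.0106). At 6 h it did not pass at -0.36 ± 0.11 (adjusted p = 0.056). Car6, the secreted salivary enzyme, gave -0.46, -0.12, -0.31 and -0.38 at 1 h, for a mean of -0.32 ± 0.07 (adjusted p = 0.0084), and its 6 h mean of -0.06 ± 0.07 did not pass. Car9, a hypoxia-induced surface enzyme, gave 0.02, -0.06, -0.64 and -1.53 at 1 h and 0.36, 0.16, 0.24 and 0.33 at 6 h. The times did not overlap, although neither mean passed (-0.55 ± 0.21, adjusted p = 0.0569, and 0.27 ± 0.21, adjusted p = 0.378). Car4, anchored at the kidney cell surface, was at 0.15 ± 0.15 and 0.02 ± 0.15. Car15, also a surface enzyme, was at 0.15 ± 0.08 and -0.17 ± 0.08, and neither gene passed.

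The mitochondrial enzymes went opposite ways at 1 h. Car5a gave -0.23, -0.20, -0.09 and -0.34, all below 0, for a mean of -0.22 ± 0.06 (adjusted p = 0.0237), a call that ended without replicate 1, 2 or 4 (adjusted p up to 0.0675). Car5b was at 0.39 ± 0.13 (adjusted p = 0.0363), from 0.15 to 0.70, and its call ended without replicate 2, 3 or 4 (adjusted p up to 0.15). At 6 h neither passed, at -0.01 ± 0.06 and 0.31 ± 0.13.

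The carbonic anhydrase-related proteins lack the enzyme activity of the family. Car8, known for its role in the cerebellum, gave -0.50, -0.45, -0.81 and -0.84 at 1 h and -0.07, -0.34, -0.50 and -0.78 at 6 h. It was below 0 on every array, with means of -0.65 ± 0.11 (adjusted p = 0.00313) and -0.42 ± 0.11 (adjusted p = 0.0328). The 6 h call ended without replicate 2, 3 or 4 (adjusted p up to 0.138). Car11 gave 0.34, 0.26, 0.31 and 0.23 at 1 h, above every 6 h array (-0.03 to 0.16), and its 1 h mean was 0.29 ± 0.06 (adjusted p = 0.00775). Car10 was read by 2 probes of opposite sign, and their mean did not pass at either time. One was below vehicle at both times, at -0.46 ± 0.08 (adjusted p = 0.0034) and -0.43 ± 0.08 (adjusted p = 0.00917), and the other was at 0.13 ± 0.07 and 0.27 ± 0.07, passing above at 6 h (adjusted p = 0.0288).

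Members of the Slc4 family, which move bicarbonate, went in both directions. The 7 genes matched by symbol include Slc4a1ap, an adaptor gene that was not called. Of these genes, 2 were above and 3 below at 1 h, and 1 was above and 2 below at 6 h. The share called was 71.4% at 1 h and 42.9% at 6 h, against 41.0% and 17.8% of all features. Among the chloride-bicarbonate exchangers, Slc4a2, the exchanger AE2 found in most epithelia, gave 0.61, 0.31, 0.58 and 0.51 at 1 h and -0.05, 0.36, 0.17 and 0.06 at 6 h. The 1 h mean was 0.50 ± 0.08 (adjusted p = 0.0025), and the 6 h mean of 0.14 ± 0.08 did not pass (adjusted p = 0.272). The 2 times overlapped only through replicate 2, at 0.31 and 0.36. Slc4a1, the exchanger AE1 of red cells and type A intercalated cells, did not pass at -0.11 ± 0.16 and -0.31 ± 0.16, with arrays from -0.80 to 0.21 over both times.

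Slc4a3, the exchanger AE3 of heart and brain, was read by 2 probes, both below 0 on all 8 arrays. One gave -1.06, -0.93, -0.98 and -1.48 at 1 h and -0.76, -0.48, -0.14 and -0.04 at 6 h, so the times did not overlap. Its mean was -1.11 ± 0.13 at 1 h (adjusted p = 0.000906) and -0.36 ± 0.13 at 6 h (adjusted p = 0.0813). The other gave -0.27 ± 0.07 (adjusted p = 0.0143) and -0.29 ± 0.07 (adjusted p = 0.0209). Averaged, they stood at -0.69 ± 0.08 (adjusted p = 0.00092) and -0.32 ± 0.08 (adjusted p = 0.023), and the 6 h call ended without replicate 1, 2 or 4 (adjusted p up to 0.085).

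Of the sodium-coupled bicarbonate carriers, Slc4a4, the electrogenic cotransporter NBCe1 of kidney and pancreas, gave 0.40, 0.42, 0.34 and 0.49 at 1 h and 0.38, 0.19, 0.25 and 0.12 at 6 h. It was above 0 on every array, with means of 0.41 ± 0.07 (adjusted p = 0.00223) and 0.24 ± 0.07 (adjusted p = 0.0359). Slc4a10, a carrier known mainly from neurons, gave -0.47, -1.28, -1.27 and -0.99 at 1 h and -0.51, -0.91, -1.07 and -1.20 at 6 h. It was below 0 on every array and nearly equal at both times, at -1.0 ± 0.15 (adjusted p = 0.00166) and -0.92 ± 0.15 (adjusted p = 0.00446). Slc4a8, the sodium-driven chloride-bicarbonate exchanger, gave -0.18, -0.34, -0.30 and -0.40 at 1 h, all below 0, for a mean of -0.31 ± 0.07 (adjusted p = 0.00672). At 6 h it did not pass at -0.11 ± 0.07. Slc4a1ap, an adaptor protein that binds AE1 and is no carrier, matched the symbol rule too. It did not pass, at 0.16 ± 0.56 and 1.46 ± 0.56, with 6 h arrays at 0.18, 1.44, -0.06 and 4.28, so its 6 h mean rests on replicate 4.

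**Figure D4:**
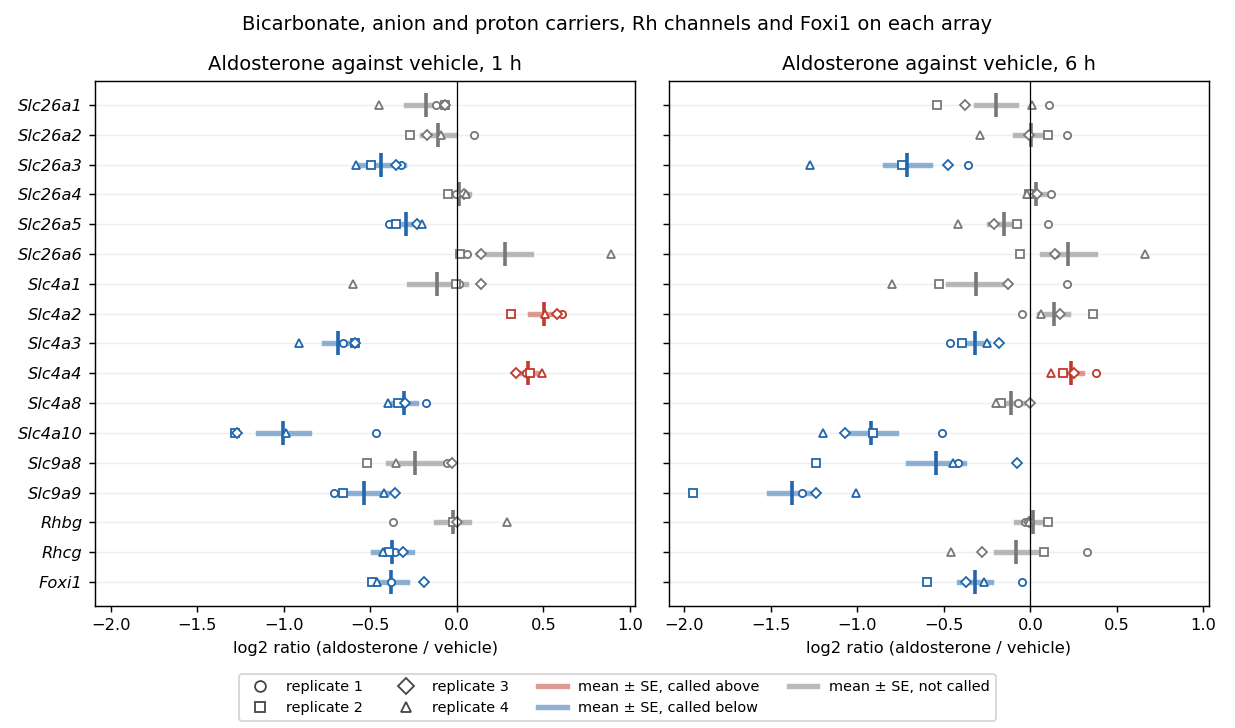
Log2 ratio of aldosterone to vehicle for the Slc26, Slc4 and Slc9 carriers, the Rh channels and Foxi1 on each of 4 arrays at 1 h (left) and 6 h (right), with symbols, means ± SE and call colours at adjusted p under 0.05. Slc4a1ap is left out of the plot. Slc9a9 lies between -0.71 and -0.36 at 1 h and between -1.95 and -1.01 at 6 h.

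None of the 6 Slc26 anion carriers was above vehicle, and Slc26a3 and Slc26a5 were below at 1 h. The share called was 33.3% at 1 h and 16.7% at 6 h, against 41.0% and 17.8% of all features. Over all features only 20.0% were above at 1 h and 7.13% at 6 h. Slc26a3, the chloride-bicarbonate exchanger of the colon, was read by 2 probes. One gave -0.85, -1.22, -0.93 and -1.11 at 1 h and -0.97, -2.08, -0.98 and -1.39 at 6 h, with means of -1.03 ± 0.16 (adjusted p = 0.00215) and -1.36 ± 0.16 (adjusted p = 0.00163). The other gave 0.20, 0.23, 0.23 and -0.06 at 1 h and 0.25, 0.60, 0.03 and -1.16 at 6 h, and did not pass (0.15 ± 0.22 and -0.07 ± 0.22). The probes thus differed in sign on 6 of 8 arrays, and the call of their average, -0.44 ± 0.13 and -0.71 ± 0.13, comes from the first. Slc26a5, the motor protein prestin of cochlear hair cells, gave -0.39, -0.35, -0.23 and -0.20 at 1 h, for a mean of -0.29 ± 0.09 (adjusted p = 0.0233) that ended without replicate 1, 2 or 3 (adjusted p up to 0.0809). At 6 h it was at -0.15 ± 0.09 and did not pass. Slc26a4, which encodes pendrin, the exchanger of type B intercalated cells, did not pass and stayed near 0, from -0.05 to 0.05 at 1 h and from -0.02 to 0.12 at 6 h. The others, Slc26a1, Slc26a2 and Slc26a6, had means from -0.18 to 0.28 at 1 h and from -0.20 to 0.22 at 6 h and did not pass.

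Of the Slc9 sodium-proton exchangers, Slc9a8 and Slc9a9, both of internal membranes, were measured. Slc9a9, the exchanger of recycling endosomes, gave -0.71, -0.66, -0.36 and -0.42 at 1 h and -1.32, -1.95, -1.24 and -1.01 at 6 h. Every array was below 0, and each 6 h array was lower than every 1 h array. The means were -0.54 ± 0.13 (adjusted p = 0.0119) and -1.38 ± 0.13 (adjusted p = 0.000667), or 0.384 of the vehicle signal at 6 h. The 6 h call held without each of the 4 arrays, with means from -1.5 to -1.19. At 1 h the call held without each array too, but not with the arrays scaled to one median absolute deviation (adjusted p = 0.053). Slc9a8, a Golgi exchanger, gave -0.42, -1.24, -0.08 and -0.45 at 6 h, for a mean of -0.55 ± 0.16 (adjusted p = 0.0432). Its mean was -0.32 without replicate 2, and the call ended without replicate 1, 2 or 4 (adjusted p up to 0.125). At 1 h it did not pass at -0.24 ± 0.16.

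Rhcg, an ammonia channel of the apical and basolateral collecting duct membranes, gave -0.36, -0.39, -0.31 and -0.43 at 1 h and 0.33, 0.08, -0.28 and -0.46 at 6 h. It was below 0 on all 4 arrays at 1 h, with a mean of -0.37 ± 0.11 (adjusted p = 0.0269), and the 6 h arrays fell on both sides of 0 (mean -0.08 ± 0.11). The 1 h arrays of Rhcg lay close together. Its error, however, is shared over both times, and the call ended whichever 1 h array was dropped (adjusted p between 0.0606 and 0.0826). Rhbg, the basolateral channel, did not pass at -0.02 ± 0.09 and 0.01 ± 0.09. Foxi1, the transcription factor needed for intercalated cells to form, gave -0.38, -0.49, -0.19 and -0.46 at 1 h and -0.05, -0.60, -0.37 and -0.27 at 6 h. It was below 0 on every array, with means of -0.38 ± 0.09 (adjusted p = 0.0108) and -0.32 ± 0.09 (adjusted p = 0.039). The 6 h call ended without replicate 2, 3 or 4 (adjusted p up to 0.149).

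Genes known from intercalated cells did not move as a group. Of the 8 among the members (Slc4a1, Slc26a4, Foxi1, Atp6v1b1, Atp6v0a4, Rhcg, Rhbg and Car2), 1 was above and 3 were below at 1 h, and 1 was above and 1 below at 6 h. Their medians were -0.07 and -0.03. The share called was 50% at 1 h and 25% at 6 h, against 41.0% and 17.8% of all features. Outside these families, 14 of 20 listed intercalated cell genes were measured, with 1 above and 3 below at each time (medians -0.06 and -0.15). That was 28.6% called at each time, under the share of all features at 1 h. The 3 of these with the smallest p were below vehicle at 1 h, at 6 h or at both. The vasopressin receptor gene Avpr1a was at -0.74 ± 0.24 (adjusted p = 0.0322) and -1.30 ± 0.24 (adjusted p = 0.00767). Slc8a1, a sodium-calcium exchanger, was at -0.72 ± 0.13 at 6 h (adjusted p = 0.0075), and Clnk, an adaptor protein, at -0.71 ± 0.13 at 1 h (adjusted p = 0.00384). Tfcp2l1, the listed gene above vehicle at both times, was at 0.23 (adjusted p = 0.0294) and 0.28 (adjusted p = 0.0247). How specific each listed gene is to intercalated cells was not checked. Of 16 principal cell genes, 2 were above and 3 below at 1 h, and 4 above and 1 below at 6 h. The share called was 31.25% at each time, against the same 41.0% and 17.8% of all features. The 3 with the smallest p were Scnn1a, the transcription factor gene Elf5, at -1.40 ± 0.18 at 6 h, and the potassium channel gene Kcnk1, at 0.62 ± 0.09. Of 11 genes for other nephron segments, 1 was above and 1 below at 1 h and 1 above at 6 h. These shares, 18.2% and 9.09%, were under those of all features. Slc12a1, the cotransporter of the thick ascending limb, was at 0.44 ± 0.12 at 1 h, the calcium-binding protein gene Calb1 at -0.28 ± 0.08 at 1 h, and Podxl, of podocytes, at 0.36 ± 0.07 at 6 h.

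In 3 lists of genes that work beside these proteins, more calls were above vehicle than below at both times. These differences from all features were not tested. The shares called at 1 h were 45.2% (lysosome and endosome), 46.2% (assembly factors and partners) and 37.5% (other proton and ammonium handling), against 41.0% of all features. At 6 h they were 25.8%, 15.4% and 6.25%, against 17.8%, so the last 2 lists held few calls. Of 31 lysosome and endosome genes, 12 were above and 2 below at 1 h, and 6 above and 2 below at 6 h, with medians of 0.13 and 0.10. The lysosomal protease gene Ctsa was at 0.40 ± 0.06 at 1 h (adjusted p = 0.00177) and 0.33 ± 0.06 at 6 h (adjusted p = 0.00744). Lamp1, a protein of the lysosomal membrane, was at 0.51 ± 0.09 and 0.36 ± 0.09, and Gusb, the lysosomal beta-glucuronidase, at 0.33 ± 0.07 and, without passing, 0.02 ± 0.07. Of 13 assembly factors and partners of the pump and of the carriers, 5 were above and 1 below at 1 h, and 2 above at 6 h. Slc9a3r1, a scaffold of apical membrane carriers, was at 0.39 ± 0.08 (adjusted p = 0.0058) and 0.37 ± 0.08 (adjusted p = 0.0156). Ezr, which links membranes to actin, was at 0.42 ± 0.09 at 1 h, and Ahcyl1, an activator of bicarbonate cotransport, at 0.33 ± 0.08. Of 16 genes for other proton and ammonium handling, 5 were above and 1 below at 1 h, and 1 above at 6 h. They included Glud1, an enzyme that releases ammonium, at 0.44 ± 0.09 and 0.35 ± 0.09, and Bsg, the partner of lactate-proton carriers, at 0.65 ± 0.12 at 1 h. The proton-gated channel gene Asic2 was the one below, at -0.38 ± 0.08.

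For the difference of 6 h minus 1 h, in which a dye difference common to all arrays drops out, none of the 51 genes was called by limma or by 2-class SAM. Over all features limma called 0.0265%. At an unadjusted p under 0.05, 9 members stood out (17.6%), against 16.1% of all features. The arrays of the 2 times did not overlap for 7 members (Car5a, Car9, Car11, Car13, Car15, Slc4a3 and Slc9a9), against 9.78% of all features. Slc9a9 had the smallest p, with a difference of -0.84 ± 0.19 (adjusted p = 0.186). Next to it were Slc4a3 at 0.37 ± 0.11 (adjusted p = 0.209) and Slc4a2 at -0.37 ± 0.12 (adjusted p = 0.219). The Slc4a3 value averages 2 unlike probes, with differences of 0.76 ± 0.18 (adjusted p = 0.182) and -0.025 ± 0.098 (adjusted p = 0.91). Car9 had a difference of 0.83 ± 0.29 (adjusted p = 0.246). The plot of 6 h means against 1 h means shows most genes near the line of equal ratios.

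**Figure D5:**
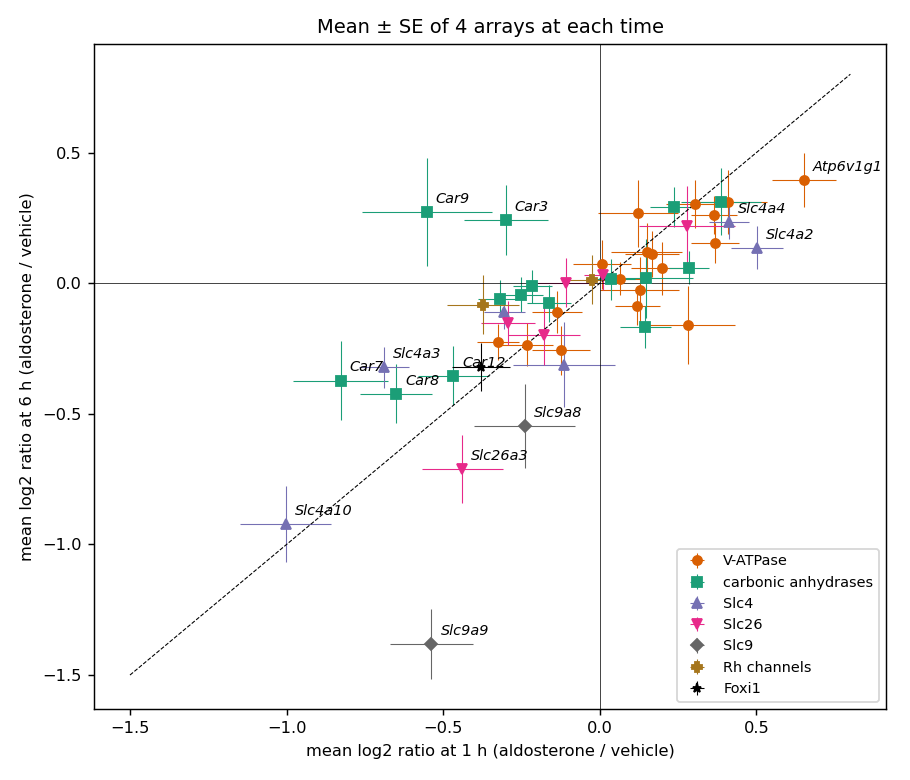
Mean log2 ratio at 6 h against mean log2 ratio at 1 h for 50 genes, with bars of ± SE from limma and a dashed line where both are equal. Slc4a1ap is left out. Slc9a9 (-0.54, -1.38) lies farthest below the line, and Car9 (-0.55, 0.27) and Car3 (-0.30, 0.24) lie above it.

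Signs were the same on all 8 arrays for 18 of the 51 genes (6 V-ATPase subunits, 4 carbonic anhydrases, 7 Slc carriers and Foxi1), against 29.7% of all features. With 1 h fitted on replicates 1 and 2 only, a setting chosen after seeing the data, 6 members were called at 1 h, against 10.5% of all features. They were Atp6v1g1, Car2 and Slc4a4 above vehicle and Atp6v0a1, Slc4a3 and Slc4a10 below.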

How the data were processed

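Each deposited value was a log2 (Cy5/Cy3) ratio from a GenePix scan, normalized by the authors with Bioconductor, per the labels. How they normalized, corrected background and treated poor spots is not stated in what was used, and scanner intensities were not used. Of 16361 probes, 13768 had 1 gene symbol in the platform annotation, 13 had several and 2580 were not listed. Probes with values on at least 3 arrays per time were kept and those with the same symbol averaged, which left 15078 features. Array pairs correlated with r from 0.312 to 0.724, and at most 2.05% of probes had equal values in a pair, so all 8 were kept as separate.

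Limma 3.58.1 (R 4.3.3) fitted a mean per time to all 8 arrays, with 6 residual and 3.73 prior degrees of freedom, and tested each mean and their difference, two-sided. The code was tested on simulated data. The 25 called members with the smallest p were to be named with every array, and the rest by range, means and counts. Of 27 that passed in a test, Atp6v1b1 and Car5b fell outside the 25. The 3 genes with the smallest p stand for each other list. The members and lists were chosen with earlier results of these data known. Alternatives were other scalings, single probes, robust moderation, array weights, single times, SAM (which the labels name) and leaving out arrays. Figures used matplotlib 3.10.9 in Python 3.11.15.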

Additional observations from a re-analysis of the deposited data

Results flagged for a closer look

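In 8 of the 102 sets of 4 arrays (51 genes at 2 times), 1 array stood apart from the other 3 by Dixon's criterion, which chance meets in about 1 in 20 sets. Replicate 4 at 1 h was that array 6 times, with log2 ratios of 1.04 for Atp6v1g1, 0.475 for Atp6v1e1, 0.46 for Atp6v0b, -0.55 for Atp6v1b1, -0.45 for Slc26a1 and 0.89 for Slc26a6. At 6 h replicate 4 stood apart for Atp6v1a at -0.35, and replicate 2 for Atp6v1h at -0.22. Of these 8, the means of Atp6v1g1 and Atp6v1b1 were called at that time, and the call of Atp6v1b1 ended without the array.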

How the results depend on the processing

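The 51 genes kept 0 calls for 6 h minus 1 h under every alternative run, while the number of calls at each time moved. With 1 h fitted on replicates 1 and 2 only, a setting chosen after seeing the data, 6 members were called (3 above, 3 below) and 1580 of all features, and the V-ATPase median was 0.08; for the difference 1 feature was then called. Leaving out a 1 h array gave 17 to 21 members at 1 h (6 to 8 above, 11 to 13 below; lowest without replicate 3), and 4327 to 5211 of all features. Leaving out a 6 h array gave 3 to 7 members at 6 h (0 to 2 above, 3 to 5 below; 7 without replicate 1, 3 without 2, 5 without 3 and 3 without 4), and 1099 to 1746 of all features. Of the 26 calls at 1 h 16 held without each array in turn, and of the 13 at 6 h 3 did, those of Slc9a9, Slc26a3 and Slc4a10. The 6 h calls of Slc4a4, Atp6v0a1, Atp6v1b2 and Atp6v1d ended whichever array was dropped (adjusted p between 0.062 and 0.163), and that of Atp6v1g1 without replicate 2, 3 or 4 (up to 0.125). The 1 h call of Atp6v1d ended without replicate 1, 2 or 3 (up to 0.12), and that of Slc26a3 without 2, 3 or 4 (up to 0.0893). Each of these fits also rests on fewer arrays, and the part of the losses that comes from that was not tested.

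SAM called 20 members at 6 h (8 above) and 5301 of all features, and 269 for the difference. Each time fitted alone left 5 below at 6 h. Scaled to one median absolute deviation, all features gave 5001 calls at 6 h and 9 for the difference, quantile normalization gave 4857 and 12, and array weights 4042 and 8; under the first 2 of these 12 members were below at 6 h. Without a given array the difference had 0 to 5 calls. The median of all members was between -0.06 and 0.02 at 6 h without 1 array. Requiring values on all 8 arrays removed no feature. Taken singly, 1 probe of Slc26a3 was at 0.15 at 1 h and 1 of Car10 at 0.27 at 6 h, against the sign of the gene's mean. The cause of these changes was not tested. No paired analysis was possible because the labels do not number the 1 h arrays. Signal over background is unknown, so the precision of a dim spot is too.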
